A study of Homo sapiens with 24 samples.

Results

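Transcript levels of 7 genes of the SRF and YAP cytoskeletal programme were examined in HepG2, an established human liver carcinoma line. The genes were SRF, TAGLN, TPM1, FHL2, ANKRD1, CCN2 (also called CTGF) and RHOB, a set named by symbol with no threshold on the data. The set was chosen with earlier results of these data known, so its counts beside those of all genes are descriptions. All 7 were found among the 14884 genes measured on 24 whole-transcript arrays. Cells plated at 10000 per well had been given 1 uM of the small molecule BRD8518, 100 ng/mL of oncostatin M (OSM), a cytokine, or vehicle alone, with DMSO at 0.25% in the medium. There were 3 arrays of each treatment at 1 h and again at 24 h. The 6 h groups held 2 arrays of BRD8518 and 4 of DMSO, with none of OSM. HepG2 is a tumour line grown alone, so no other liver cell type is part of these groups.

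Serum response factor (SRF) is a transcription factor that binds CArG boxes, and it is switched on by the actin-regulated cofactors MRTF-A and MRTF-B or by the ETS-type ternary complex factors. YAP and TAZ are coactivators held in check by the Hippo kinases, and they bind DNA through the TEAD factors. Both routes respond to actin assembly, and several genes are known as targets of both. TAGLN (transgelin) and TPM1 (tropomyosin) encode actin-binding proteins, FHL2 a LIM-domain cofactor, ANKRD1 an ankyrin repeat protein, CCN2 a secreted matricellular protein, and RHOB a small GTPase.

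The CArG box and the hexamer GGAATG, the core of the TEAD motif, were searched on both strands in the 250 bases before each transcript start held in the sequence table, with sequences from RefSeq (GRCh38.p14). Windows were held for 6 of the 7 genes, all but TAGLN. A CArG box lay in 1.16% of all 35116 windows of this length and GGAATG in 11.9%. At least 1 window held a CArG box for 2 genes, SRF and FHL2, and GGAATG for 3 genes, ANKRD1, CCN2 and FHL2. FHL2 had 4 windows from different starts and SRF had 2, so they had more chances of a match than a gene with 1 window. The second SRF window, not printed here, held neither set of letters. The windows of TPM1 and RHOB held neither set of letters, and the only TPM1 window lies before an internal start, so the bases in front of its first annotated start were not searched. No motif matches overlapped in the windows printed here, which show where the letters lie in front of the genes whose levels are given next. Each is written 5′ to 3′ on the gene's strand with the matches in capitals, and the last base precedes the transcript start. They are SRF at chr6:43171019-43171268 on the plus strand, ANKRD1 at chr10:90921088-90921337 on the minus strand, CCN2 at chr6:131951373-131951622 on the minus strand, and FHL2 at chr2:105438530-105438779 on the minus strand.
SRF: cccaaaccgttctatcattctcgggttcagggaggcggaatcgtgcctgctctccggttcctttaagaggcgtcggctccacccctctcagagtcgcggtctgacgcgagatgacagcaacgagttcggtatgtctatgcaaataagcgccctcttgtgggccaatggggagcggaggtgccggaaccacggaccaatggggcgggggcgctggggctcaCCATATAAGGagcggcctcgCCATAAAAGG
ANKRD1: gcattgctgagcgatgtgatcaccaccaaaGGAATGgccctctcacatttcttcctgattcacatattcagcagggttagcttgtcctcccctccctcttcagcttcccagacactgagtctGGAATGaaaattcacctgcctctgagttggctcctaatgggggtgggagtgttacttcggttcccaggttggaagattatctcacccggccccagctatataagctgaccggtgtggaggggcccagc
CCN2: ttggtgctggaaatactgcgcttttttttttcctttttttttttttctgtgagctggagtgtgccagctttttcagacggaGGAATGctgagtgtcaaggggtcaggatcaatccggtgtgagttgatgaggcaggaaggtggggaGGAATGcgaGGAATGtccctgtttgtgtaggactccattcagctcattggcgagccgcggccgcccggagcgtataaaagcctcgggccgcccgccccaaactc
FHL2: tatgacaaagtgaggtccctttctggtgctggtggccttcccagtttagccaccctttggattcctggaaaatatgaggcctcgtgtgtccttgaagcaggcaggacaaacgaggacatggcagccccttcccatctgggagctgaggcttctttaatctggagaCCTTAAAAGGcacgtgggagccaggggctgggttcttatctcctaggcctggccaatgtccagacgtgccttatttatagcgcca
SRF carried a pair of CArG boxes, CCATATAAGG from 30 to 21 bases and CCATAAAAGG from 10 to 1 bases before the start. ANKRD1 carried GGAATG at 220 to 215 and 128 to 123 bases. In CCN2 it stood at 169 to 164, 104 to 99 and 95 to 90 bases before the start. FHL2 carried the CArG box CCTTAAAAGG from 85 to 76 bases before the start of the window shown. A match describes the sequence only, and occupancy of these windows was not measured.

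**Figure D1:**
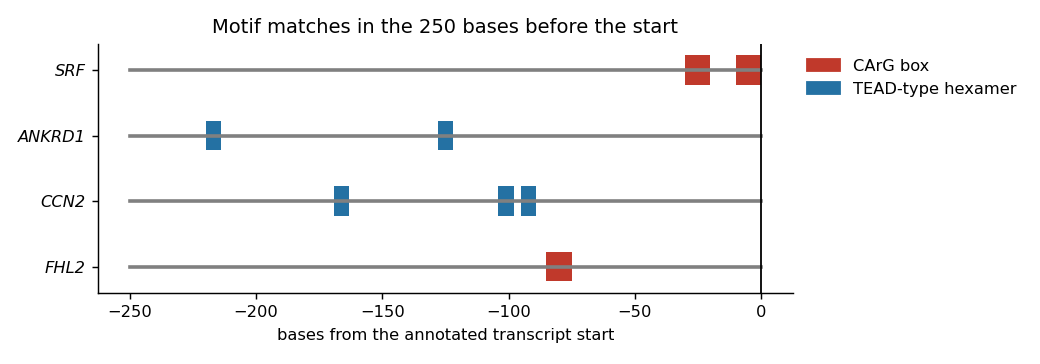
Positions of CArG boxes (red) and GGAATG hexamers (blue) along the 250 bases before the transcript start, in bases from that start on the x axis, for SRF, ANKRD1, CCN2 and FHL2. Each gene is drawn for its window printed in the text, and the GGAATG match of FHL2 lies in another of its windows. The SRF boxes lie within the last 30 bases, and the 3 CCN2 hexamers lie from 169 to 90 bases before the start.

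Hepatocyte markers identified the cells, with group means of ALB (albumin) from 12.2 to 12.4 and of APOB (apolipoprotein B) from 12.5 to 12.6 on the log2 scale of the robust multi-array average (RMA). The fibroblast markers DCN and LUM lay between 2.27 and 3.36 in every group mean and the muscle marker DES between 5.78 and 6.40, and none of these 3 changed in any comparison with DMSO. They are the measured ones of 6 fibroblast and 6 muscle markers listed. Of 4 endothelial markers 3 were measured, and PECAM1 was lower with OSM at 24 h (-0.43) while VWF and KDR were not called. Of 9 hepatocyte markers listed, 7 were measured. With BRD8518, 5 of 7 fell at 24 h, AFP (-0.39), APOA1 (-0.63), TTR (-0.75), FGB (-0.42) and TF (-0.51), where 15.6% of all genes were lower, and APOA1 (-0.52) and TF (-0.28) fell at 6 h, where 8.86% were. With OSM at 24 h AFP (-0.28), APOA1 (-0.79), TTR (-0.46) and TF (-0.35) fell, while FGB rose by 1.51, after 1.14 at 1 h. Their part in the results on the 7 genes was not tested. An array in the 6 h vehicle group, DMSO 6 h replicate 2, stood apart, with a mean correlation of 0.977 with the rest of its group against 0.988 to 0.990 for the others. In it SRF, CCN2, FHL2 and RHOB were at the highest value of the 4 arrays. Without it, the 6 h changes described next ran from 0.32 (TPM1) to 2.52 (ANKRD1), and all 7 genes stayed higher. All 6 h arrays carry the position letter D in their labels, so time and position cannot be told apart where 6 h levels are set against those of another time. BRD8518 and DMSO at 6 h share that letter, so a shift common to its arrays drops out of the 6 h changes. The 24 h arrays carry A, save DMSO 24 h replicate 3 with B. The 1 h arrays carry B, save BRD8518 1 h replicates 2 and 3 with C. Levels at 24 h and 1 h are thus also hard to separate from position. The labels do not say that replicates were separate cultures, so p-values measure the spread between arrays, which may be technical.

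BRD8518 raised all 7 genes past the threshold at 6 h and at 24 h, and 2 of 7 at 1 h. By limma 6 of 7 had an unadjusted p under 0.05 at 1 h, as had 760 of all 14884 genes. Changes of similar size were called at 24 h and not at 1 h, for SRF 0.32 and 0.33 and for CCN2 0.31 and 0.28. The median change over the 7 genes was 0.33 at 1 h, 0.93 at 6 h and 0.59 at 24 h on the log2 scale, where the median over all genes tested was 0.016, -0.011 and -0.0049. Genes higher at an adjusted p under 0.05 made up 0.222% of all genes at 1 h, 5.62% at 6 h and 12.1% at 24 h. At 6 h the split over all genes was 836 higher and 1319 lower, and it turned to 1309 and 943 with each array centred on the median of the tested genes, under which the 7 genes were still higher, by 0.43 to 2.62. At each time the treated arrays of all 7 genes lay above every time-matched DMSO array, as they did for 7.97%, 11.9% and 19.8% of all genes. With OSM the share of all genes separated in this way is not given here. Separation of OSM arrays from their controls therefore only describes single genes in the paragraphs that follow. OSM gave a mixed pattern, with 3 of 7 genes higher at 1 h, where 2.03% of all genes were higher. At 24 h with OSM 1 gene was higher and 2 were lower, against 4.6% and 5.65% of all genes. In bulk RNA a change in a transcript per cell and a change in the share of cells that carry it cannot be told apart. The vehicle itself did not move the genes past the threshold between any of the times (0 of 7 in each limma comparison, with 2, 1 and 0 of 7 at an unadjusted p under 0.05 for 6 h against 1 h, 24 h against 6 h and 24 h against 1 h, and 0.00672%, 0% and 0% of all genes called).

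**Figure D2:**
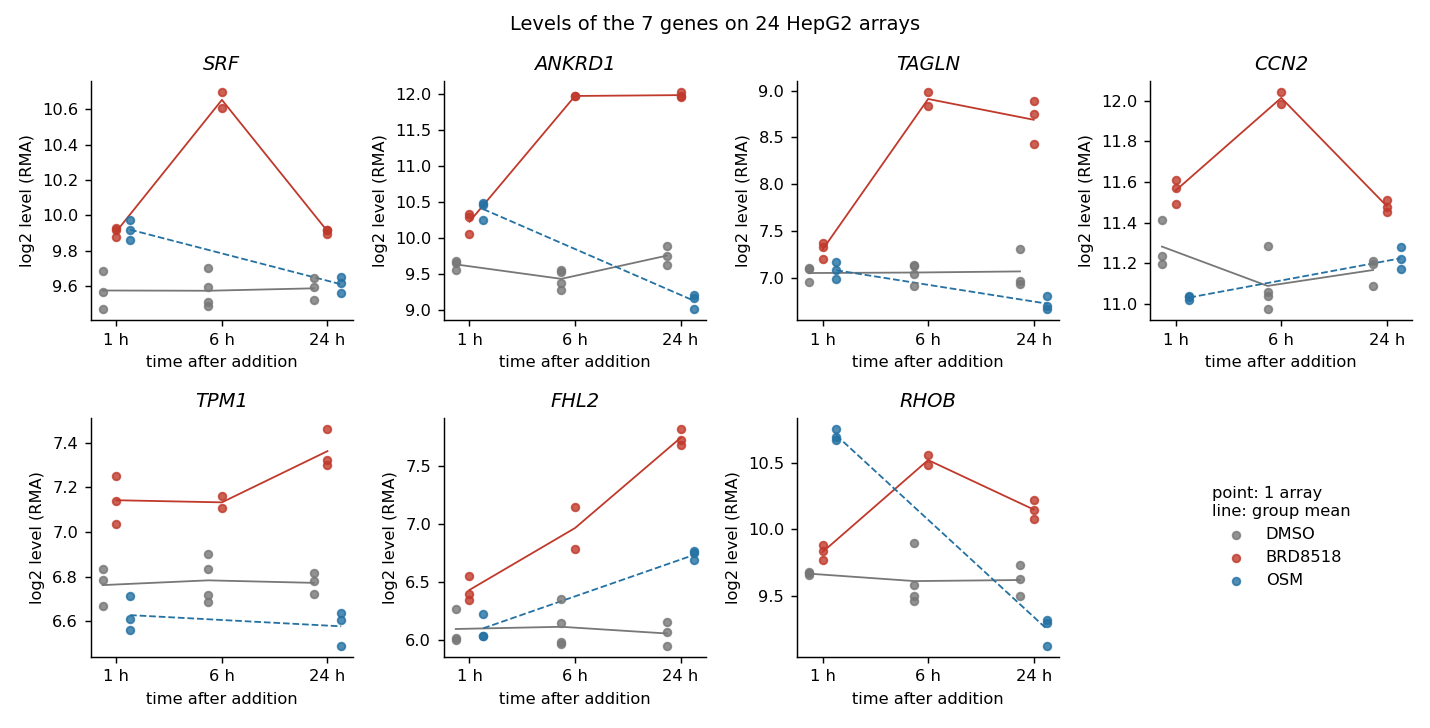
Log2 RMA level (y axis) of each gene on each array (points) at 1, 6 and 24 h (x axis, times evenly spaced and not to scale), for DMSO (grey), BRD8518 (red) and OSM (blue). Lines join group means, and the dashed OSM line joins 1 h to 24 h with no 6 h group between them. Every BRD8518 point lies above the DMSO points of its time.

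SRF, the transcription factor itself, peaked at 6 h with BRD8518. Its DMSO arrays read 9.47, 9.57 and 9.69 at 1 h, 9.49, 9.51, 9.60 and 9.70 at 6 h, and 9.52, 9.60 and 9.64 at 24 h. With BRD8518 they read 9.88, 9.92 and 9.93 at 1 h, 10.61 and 10.70 at 6 h, and 9.90, 9.91 and 9.92 at 24 h. The 6 h arrays thus stood well above all others, while the 1 h and 24 h arrays of BRD8518 covered the same narrow range. The change was 0.33 ± 0.07 (SE) at 1 h, which missed the threshold (adjusted p = 0.0514), 1.08 ± 0.08 at 6 h (2.11-fold, adjusted p = 1.18e-09) and 0.32 ± 0.07 at 24 h (1.25-fold, adjusted p = 0.00132). The effect at 24 h was smaller than that at 6 h by a difference of -0.76 ± 0.11 (adjusted p = 3.92e-05). Without DMSO 6 h replicate 2 or without DMSO 1 h replicate 3 the 1 h rise passed the threshold, at 0.33 and 0.39. It also passed with array weights (0.36) and with arrays centred on their median (0.35). The same held with only genes at or above the median level, trend and robust options of limma, or a random position term (each 0.33). OSM arrays read 9.86, 9.92 and 9.98 at 1 h and 9.56, 9.62 and 9.65 at 24 h. SRF was thus higher with OSM at 1 h, by 0.34 ± 0.07 (1.27-fold, adjusted p = 0.00649), and its OSM and DMSO arrays overlapped at 24 h. That 1 h call was lost without OSM 1 h replicate 1 (0.32) or DMSO 1 h replicate 1 (0.29), and in a fit of the compared groups alone (0.34).

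TAGLN, the actin-binding protein transgelin and a textbook CArG-box gene of smooth muscle, responded to BRD8518 at 6 h and 24 h. DMSO arrays read 6.95, 7.09 and 7.10 at 1 h, 6.91, 7.04, 7.13 and 7.14 at 6 h, and 6.93, 6.96 and 7.31 at 24 h. BRD8518 arrays read 7.20, 7.33 and 7.37 at 1 h, 8.83 and 8.99 at 6 h, and 8.43, 8.74 and 8.89 at 24 h. Levels at 6 h and 24 h were clear of every DMSO and OSM array, and the 1 h arrays lay just above their own controls. The change was 0.25 ± 0.11 at 1 h (adjusted p = 0.936), 1.86 ± 0.12 at 6 h (3.62-fold, adjusted p = 1.98e-10) and 1.62 ± 0.11 at 24 h (3.08-fold, adjusted p = 1.45e-10). OSM arrays read 6.98, 7.08 and 7.17 at 1 h, among the controls, and 6.66, 6.70 and 6.80 at 24 h, below every control. The 24 h difference with OSM was -0.35 ± 0.11 and missed the threshold (adjusted p = 0.0504), although it passed without DMSO 24 h replicate 2 (-0.41) or without DMSO 6 h replicate 2 (-0.35). It also passed with array weights (-0.32), and with only genes at or above the median level or trend and robust options (each -0.35). Either centring or a random position term gave -0.36, again past the threshold. In the RefSeq annotation TAGLN overlaps PCSK7 and LOC100652768, and which strand its probe set reads was not settled.

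TPM1, tropomyosin, which lies along actin filaments, gave the smallest 6 h rise. Its BRD8518 arrays read 7.04, 7.14 and 7.25 at 1 h, 7.11 and 7.16 at 6 h, and 7.30, 7.32 and 7.46 at 24 h. The DMSO arrays read 6.67, 6.78 and 6.83 at 1 h, 6.69, 6.72, 6.83 and 6.90 at 6 h, and 6.72, 6.78 and 6.82 at 24 h, so no treated array fell among them. The change was 0.38 ± 0.08 at 1 h (1.30-fold, adjusted p = 0.0424), 0.35 ± 0.08 at 6 h (1.27-fold, adjusted p = 0.00570) and 0.59 ± 0.08 at 24 h (1.50-fold, adjusted p = 4.07e-06). The 1 h call was lost without DMSO 1 h replicate 1 (0.42), 2 (0.33) or 3 (0.39) and without BRD8518 1 h replicate 2 (0.38) or 3 (0.33), and the 6 h call without BRD8518 6 h replicate 2 (0.32). A second TPM1 probe set, of mean level 4.23, differed by 0.15 ± 0.15 at 1 h (adjusted p = 1), -0.27 ± 0.16 at 6 h (adjusted p = 0.312) and 0.41 ± 0.15 at 24 h (adjusted p = 0.0443). With the mean of both probe sets the 1 h and 6 h changes were 0.27 and 0.04 and no longer called. The 1 h call was also lost with the position letter as a fixed term (0.27) and with arrays centred on the median of the tested genes (0.36). In a fit of the compared groups alone neither the 1 h change (0.38) nor the 6 h change (0.35) was called. OSM arrays read 6.56, 6.61 and 6.71 at 1 h and 6.49, 6.61 and 6.64 at 24 h, a difference of -0.13 ± 0.08 (adjusted p = 0.610) and -0.19 ± 0.08 (adjusted p = 0.152). TPM1 overlaps the antisense gene TPM1-AS in the annotation.

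FHL2, a LIM-domain cofactor of SRF and other factors, had a BRD8518 response that grew from 6 h to 24 h. BRD8518 arrays read 6.35, 6.40 and 6.55 at 1 h, 6.78 and 7.15 at 6 h, and 7.68, 7.73 and 7.82 at 24 h, against DMSO arrays at 6.00, 6.02 and 6.27, then 5.97, 5.99, 6.15 and 6.36, then 5.95, 6.07 and 6.15. Each later set of BRD8518 arrays lay above the earlier ones, while the DMSO arrays kept to the same range. The change was 0.34 ± 0.11 at 1 h (adjusted p = 0.538), 0.85 ± 0.12 at 6 h (1.80-fold, adjusted p = 1.66e-05) and 1.69 ± 0.11 at 24 h (3.22-fold, adjusted p = 6.34e-11). The 24 h effect exceeded the 6 h effect by 0.83 ± 0.16 (adjusted p = 0.00108). OSM arrays read 6.04, 6.04 and 6.23 at 1 h, within the DMSO range, and 6.69, 6.75 and 6.77 at 24 h, above it. FHL2 was the gene of the 7 that was higher with OSM at 24 h, by 0.68 ± 0.11 (1.60-fold, adjusted p = 1.44e-04). It overlaps C2orf49 in the annotation.

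ANKRD1, a nuclear and sarcomeric ankyrin repeat protein and a standard YAP target, had the largest BRD8518 change of the 7 genes at each time. Its DMSO arrays read 9.56, 9.66 and 9.68 at 1 h, 9.28, 9.37, 9.53 and 9.55 at 6 h, and 9.63, 9.74 and 9.89 at 24 h. BRD8518 arrays read 10.06, 10.29 and 10.33 at 1 h, 11.97 and 11.97 at 6 h, and 11.95, 11.97 and 12.03 at 24 h. The level at 6 h was therefore held at 24 h. The change was 0.59 ± 0.09 at 1 h (1.51-fold, adjusted p = 0.00204), 2.54 ± 0.10 at 6 h (5.81-fold, adjusted p = 1.30e-13) and 2.23 ± 0.09 at 24 h (4.69-fold, adjusted p = 7.87e-14). With the position letter as a fixed term the 1 h change was 0.43 and no longer called. At 6 h ANKRD1 ranked 6th among all genes by size of change, while TPM1, the lowest of the 7 genes, ranked 2380th. OSM arrays read 10.25, 10.46 and 10.49 at 1 h, above every control, and 9.01, 9.17 and 9.20 at 24 h, below every control. ANKRD1 was higher by 0.77 ± 0.09 with OSM at 1 h (1.70-fold, adjusted p = 9.06e-06) and lower at 24 h, by -0.63 ± 0.09 (1.55-fold, adjusted p = 6.00e-05). In the vehicle, its 24 h arrays lay above all 6 h arrays, as for 1.31% of all genes, with a difference of 0.32 ± 0.09 (adjusted p = 0.867), and its 6 h arrays below all 1 h arrays, as for 1.12% of all genes.

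CCN2, a secreted matricellular growth factor and a second standard YAP target, rose at 6 h and less at 24 h. DMSO arrays read 11.20, 11.24 and 11.41 at 1 h, 10.97, 11.04, 11.06 and 11.28 at 6 h, and 11.09, 11.20 and 11.21 at 24 h. BRD8518 arrays read 11.49, 11.57 and 11.61 at 1 h, 11.98 and 12.04 at 6 h, and 11.45, 11.48 and 11.51 at 24 h. The 24 h arrays had come back to just below most of the 1 h arrays. The change was 0.28 ± 0.08 at 1 h (adjusted p = 0.319), 0.93 ± 0.08 at 6 h (1.90-fold, adjusted p = 4.70e-08) and 0.31 ± 0.08 at 24 h (1.24-fold, adjusted p = 0.00353). As for SRF, the 24 h effect was smaller than the 6 h effect, here by a difference of -0.61 ± 0.11 (adjusted p = 8.93e-04). Without DMSO 6 h replicate 2 the 1 h rise of 0.28 passed the threshold, as it did with array weights (0.31) and with the mean of probe sets (0.38). A second CCN2 probe set gave 0.49 ± 0.09 at 1 h (adjusted p = 0.0195), 1.09 ± 0.10 at 6 h (adjusted p = 6.69e-08) and 0.20 ± 0.09 at 24 h (adjusted p = 0.144). OSM arrays read 11.02, 11.04 and 11.04 at 1 h, below every control but short of the threshold (-0.25 ± 0.08, adjusted p = 0.107), and 11.17, 11.22 and 11.28 at 24 h, among the controls. The 1 h difference with OSM passed the threshold without DMSO 6 h replicate 2 (-0.25). It also passed with quantile normalization (-0.3), trend and robust options of limma (-0.25) or array weights (-0.22). The second probe set did not show it, with -0.05 ± 0.09 for OSM at 1 h (limma adjusted p = 0.942). CCN2 overlaps the antisense gene CCN2-AS1.

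RHOB, a small GTPase whose transcript is known for rapid induction, was higher at 1 h with OSM and at later times with BRD8518. DMSO arrays read 9.65, 9.67 and 9.68 at 1 h, 9.46, 9.50, 9.58 and 9.90 at 6 h, and 9.50, 9.62 and 9.73 at 24 h. OSM arrays read 10.68, 10.69 and 10.76 at 1 h and 9.12, 9.29 and 9.32 at 24 h, clear of the controls on opposite sides. BRD8518 arrays read 9.77, 9.84 and 9.88 at 1 h, 10.49 and 10.56 at 6 h, and 10.08, 10.15 and 10.23 at 24 h. Each group of BRD8518 arrays lay above its controls, by the least at 1 h. With OSM the change was 1.04 ± 0.09 at 1 h (2.06-fold, adjusted p = 9.30e-08) and -0.37 ± 0.09 at 24 h (1.30-fold lower, adjusted p = 0.0111). The 24 h fall was no longer called without OSM 24 h replicate 1 (-0.31) or without DMSO 24 h replicate 3 (-0.32), nor with the position letter as a fixed term (-0.32). BRD8518 changed RHOB by 0.16 ± 0.09 at 1 h (adjusted p = 1, not called), 0.91 ± 0.10 at 6 h (1.88-fold, adjusted p = 9.31e-07) and 0.53 ± 0.09 at 24 h (1.45-fold, adjusted p = 1.30e-04).

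**Figure D3:**
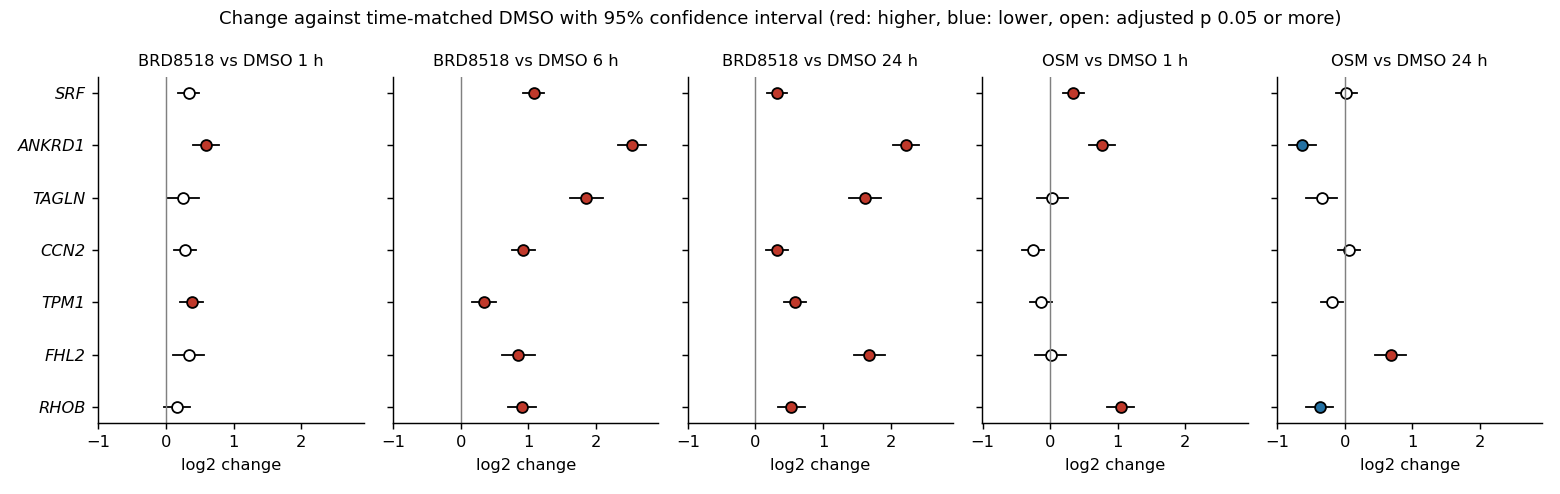
Log2 change against time-matched DMSO (x axis) for the 7 genes (y axis) in the 5 comparisons, with 95% confidence intervals from the limma fit; filled points passed an adjusted p of 0.05. ANKRD1 lies farthest to the right in each BRD8518 panel, at 0.59, 2.54 and 2.23, and RHOB in the OSM 1 h panel, at 1.04.

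Ordered by group mean, the groups of each gene showed where neighbouring levels separated. For FHL2 the BRD8518 groups at 24 h and 6 h, OSM at 24 h and BRD8518 at 1 h followed in that order with no overlap among these 4. The DMSO groups and OSM at 1 h had lower means and overlapped each other, and the highest DMSO 6 h array, replicate 2, also overlapped the BRD8518 1 h group. The 6 h and 24 h BRD8518 groups of TAGLN overlapped and stood 1.39 above BRD8518 at 1 h, and for TPM1 the 24 h group stood first, 0.22 above the 1 h group. BRD8518 at 6 h stood first for SRF and CCN2, with all of its arrays above those of the next group, by 0.73 and 0.46 between means. For ANKRD1 the 24 h and 6 h BRD8518 groups overlapped and stood 1.57 above the next, OSM at 1 h. OSM at 1 h stood first for RHOB, by 0.19 above BRD8518 at 6 h, with no overlap. At the low end, OSM at 24 h was last for ANKRD1 and RHOB, 0.31 and 0.37 below DMSO at 6 h, and for TAGLN, 0.33 below DMSO at 1 h, again with no overlap.

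Timing of the BRD8518 response was tested gene by gene as the difference between effects. From 1 h to 6 h the effect grew for 5 of 7 genes, where 2.1% of all genes grew: by 1.95 ± 0.14 for ANKRD1, 1.61 ± 0.16 for TAGLN, 0.75 ± 0.14 for RHOB, 0.75 ± 0.11 for SRF and 0.65 ± 0.11 for CCN2. FHL2 missed the threshold (0.51 ± 0.16, adjusted p = 0.0602) and passed without DMSO 6 h replicate 2 (0.60) or BRD8518 6 h replicate 2 (0.70). TPM1 differed by -0.03, with a 95% confidence interval from -0.27 to 0.21. From 6 h to 24 h SRF and CCN2 lost effect and FHL2 gained, against 5.12% and 5.96% of all genes. TPM1 differed by 0.24 ± 0.12 (adjusted p = 0.230), which became 0.46 and passed with the mean of both probe sets, the second of which gave 0.69 ± 0.22 (adjusted p = 0.0465). RHOB differed by -0.38 ± 0.14 (adjusted p = 0.0860), and this passed without DMSO 6 h replicate 2 (-0.48). The ANKRD1 and TAGLN effects at 24 h and 6 h differed by -0.31 (interval -0.60 to -0.02, adjusted p = 0.178) and -0.23 (interval -0.57 to 0.10, adjusted p = 0.461). Between 1 h and 24 h, ANKRD1 (1.64), TAGLN (1.37) and FHL2 (1.35) gained, which makes 3 of 7 against 7.24% of all genes. These comparisons share the same vehicle and treated groups and are not independent.

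For OSM, the effects at 24 h and 1 h differed for 3 genes. ANKRD1 (-1.40 ± 0.13) and RHOB (-1.42 ± 0.13) went from higher to lower than the vehicle, and FHL2 gained 0.67 ± 0.15 (adjusted p = 0.0130). Among all genes 2.1% lost and 1.27% gained. The FHL2 call was lost without DMSO 1 h replicate 3 (0.59). Without DMSO 6 h replicate 2, which enters only through the shared spread, SRF (-0.32) and CCN2 (0.31) also passed, for 5 of 7 in all. The second CCN2 probe set differed by -0.02 ± 0.13 in the full fit (limma adjusted p = 0.993).

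BRD8518 and OSM were also set against each other at the times they share, at 1 dose of each agent. At 1 h CCN2 (0.53 ± 0.08, adjusted p = 1.70e-04) and TPM1 (0.51 ± 0.08, adjusted p = 2.70e-04) were higher with BRD8518, where 0.847% of all genes were. Both calls were lost with the position letter as a fixed term (0.46 and 0.41). RHOB was lower by a difference of -0.88 ± 0.09 (adjusted p = 1.76e-06), where 1.5% of all genes were. SRF differed by -0.01 (interval -0.16 to 0.14) and ANKRD1 by -0.17 (interval -0.37 to 0.02). TAGLN (0.22) and FHL2 (0.33) missed the threshold, and FHL2 passed without DMSO 6 h replicate 2. At 24 h all 7 genes were higher with BRD8518 than with OSM, against 10.9% of all genes. The differences were 2.86 ± 0.09 for ANKRD1 (7.24-fold), 1.97 ± 0.11 for TAGLN (3.91-fold), 1.01 ± 0.11 for FHL2 (2.01-fold), 0.91 ± 0.09 for RHOB (1.87-fold), 0.78 ± 0.08 for TPM1 (1.72-fold), 0.30 ± 0.07 for SRF (1.23-fold) and 0.26 ± 0.08 for CCN2 (1.20-fold). The CCN2 call was lost without OSM 24 h replicate 1 (0.23), BRD8518 24 h replicate 2 (0.24) or BRD8518 24 h replicate 3 (0.26).

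The BRD8518 minus OSM difference moved upward from 1 h to 24 h for 5 of 7 genes, where 6.54% of all genes moved this way. It rose by 3.03 ± 0.13 for ANKRD1, 1.79 ± 0.13 for RHOB, 1.75 ± 0.16 for TAGLN, 0.68 ± 0.15 for FHL2 and 0.31 ± 0.10 for SRF. The SRF value had a limma adjusted p of 0.0438. Its call was lost without any single array of the BRD8518 1 h, BRD8518 24 h and OSM 24 h groups, and without OSM 1 h replicate 1 or 3. Those fits gave 0.28 to 0.33. The SRF call was also lost with quantile normalization (0.29) and with the position letter as a fixed term (0.34). TPM1 (0.27 ± 0.11, adjusted p = 0.129) and CCN2 (-0.27 ± 0.11, adjusted p = 0.121) were not called. CCN2 was called without DMSO 6 h replicate 2, at the same -0.27.

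**Figure D4:**
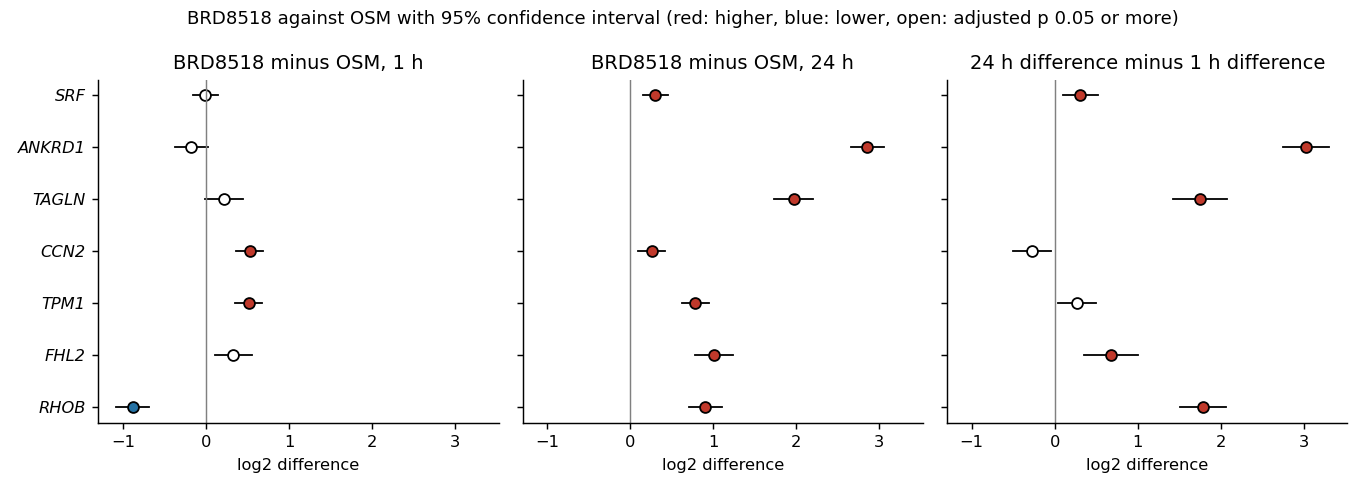
BRD8518 minus OSM in log2 units (x axis) for the 7 genes (y axis) at 1 h, at 24 h, and as the difference between these, with 95% confidence intervals; filled points passed an adjusted p of 0.05. At 1 h RHOB lies at -0.88 and CCN2 at 0.53, and at 24 h all 7 genes lie to the right of 0.

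Genes around the 7 were followed in lists written with earlier results of these data known, so their counts are descriptions. They are to be read against the share of all genes called, with BRD8518 0.222%, 5.62% and 12.1% higher at 1, 6 and 24 h and 8.86% and 15.6% lower at 6 and 24 h, and with OSM 2.03% higher at 1 h and 4.6% higher and 5.65% lower at 24 h. Of 6 SRF cofactors listed, 3 were measured, and MRTFA, the actin-sensing MRTF-A, rose with BRD8518 at 24 h from 7.13 ± 0.04 to 7.72 ± 0.03 (SD), a change of 0.59 ± 0.09 (SE). MRTFB and MYOCD did not pass the test in any comparison with DMSO.

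Of 31 further actin genes, 12 were measured, which here means named in the platform annotation. The rest, ACTB and ACTA2 among them, had no named probe set. With BRD8518, 1 of 12 rose at 1 h, 6 at 6 h and 7 at 24 h, with 1 lower at 24 h, CALD1 (-0.26). The list's median change was 0.06, 0.30 and 0.30. PDLIM7, a PDZ and LIM protein of actin stress fibres, rose by 0.45, 0.77 and 1.33 at the successive times. VCL (vinculin) and ZYX (zyxin), both of focal adhesions, rose by 0.92 ± 0.07 and 0.89 ± 0.09 at 6 h and by 0.25 and 0.64 at 24 h. PDLIM5 rose by 0.98 ± 0.11 at 24 h. With OSM 0 of 12 changed at 1 h, where the 12 genes had a median of 0.09, and at 24 h 3 rose and 1 fell. By limma those 12 genes had 1 h changes with OSM from -0.06 to 0.27, and 3 had an unadjusted p under 0.05.

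The YAP, TAZ, TEAD and Hippo list had 16 of 18 genes measured. By limma BRD8518 changed 0 of 16 at 1 h (0 also at an unadjusted p under 0.05), raised 3 and lowered 1 at 6 h (VGLL4, -0.26), and raised 9 and lowered 1 at 24 h. The list's median change was 0.04, 0.09 and 0.37 at the successive times. TEAD1 and TEAD4, DNA-binding partners of YAP, rose at 24 h by 0.81 ± 0.08 and 0.57 ± 0.09, and MOB1B, an activator of the LATS kinases, by 0.68 ± 0.15. AMOT, a scaffold that binds YAP, was the gene that was lower, by -0.54 ± 0.10. With OSM 1 of 16 rose at 1 h, SAV1 (0.35), a scaffold of the Hippo kinases, and at 24 h 2 rose and 1 fell, AMOT (-0.49). YAP1 and WWTR1, which encodes TAZ, were singled out after their values were seen. They rose by 0.31 and 0.38 with BRD8518 at 6 h, by 0.46 and 0.50 at 24 h, and by 0.41 and 0.38 with OSM at 24 h.

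Other genes often listed as YAP targets were measured for 13 of 23, with no named probe set for CCN1. With BRD8518, 1 rose at 1 h, 5 at 6 h and 6 at 24 h, and none of the 13 was lower past the threshold at any of these times. AXL, a receptor tyrosine kinase, went from 7.30 ± 0.21 in DMSO to 10.72 ± 0.05 (SD) at 24 h, a change of 3.42 ± 0.10. EDN1, which encodes the peptide endothelin-1, rose by 1.05 ± 0.13 at 1 h, 2.97 ± 0.13 at 6 h and 1.45 ± 0.13 at 24 h. THBS1, the matrix protein thrombospondin-1, rose by 1.28 ± 0.10 at 6 h and differed by 0.15 at 24 h (adjusted p = 0.267), and MYOF, a membrane repair protein, rose by 0.95 ± 0.09 at 24 h. With OSM, EDN1 (0.60) and THBS1 (0.53) rose at 1 h. At 24 h EDN1 (0.92) and IGFBP3 (0.49) rose, while AXL (-0.33) and AJUBA (-0.34) fell.

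**Figure D5:**
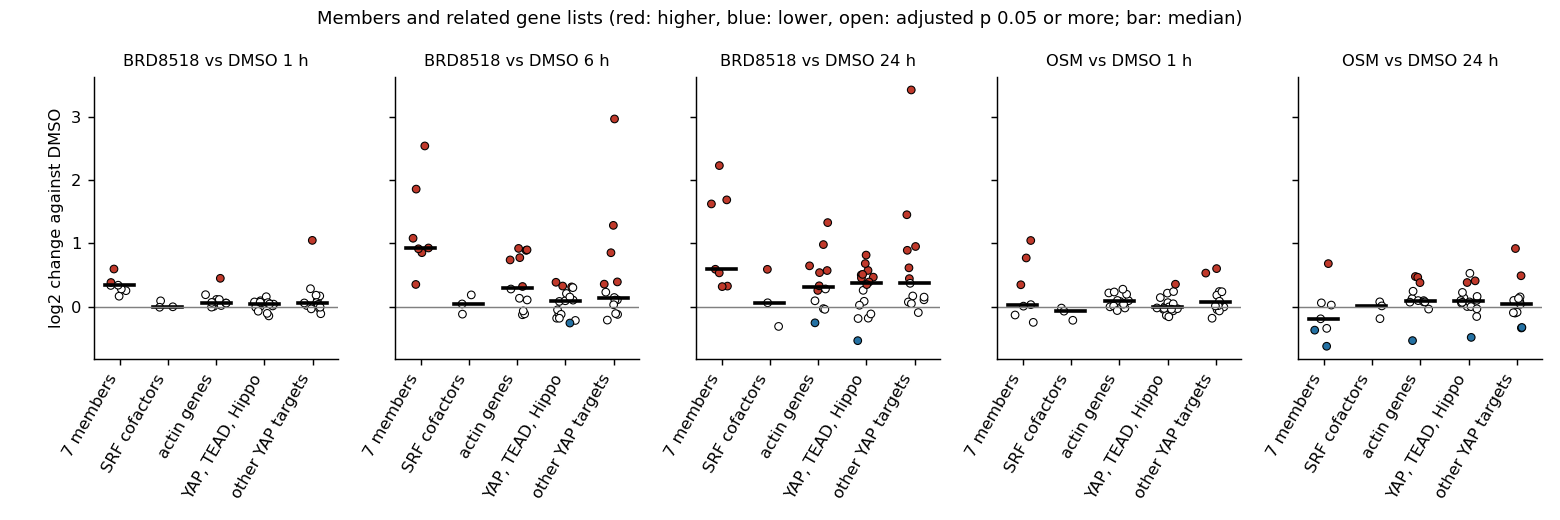
Log2 change against time-matched DMSO (y axis) for the 7 genes and the 4 related lists (x axis) in the 5 comparisons, where each point is a gene, filled red if higher and blue if lower at an adjusted p under 0.05, and bars are medians. With BRD8518 at 24 h the list medians run from 0.06 for the SRF cofactors to 0.37, and the 7 genes have 0.59.

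Among themselves the genes followed each other to differing degrees over the 8 group means, which share their arrays across genes. Pearson's r was 0.96 for ANKRD1 and TAGLN, 0.85 for SRF and CCN2, and 0.22 for FHL2 and RHOB, the lowest pair. Other genes with similar profiles were sought among 1013 whose group means span at least 1 log2 unit. GLIPR1 (0.99) and DAAM1 (0.98) were most like ANKRD1, and SRXN1 (0.99) and DAAM1 (0.98) most like TAGLN. CREBRF (0.99) and ZC3H6 (0.98) were most like FHL2, TCIM (0.94) and SYNJ2-IT1 (0.93) most like CCN2, and ZC3H12A (0.91) and IER2 (0.90) most like RHOB. For SRF they were MIR637, whose probe set reads the precursor or the transcript around it, (0.98) and TUFT1 (0.96), and for TPM1 they were ADAM20 (0.91) and FRK (0.90). CXCL8, GLIPR1, MYC, DAAM1 and MIR3189 came closest to the mean profile of the 7 genes, with r from 0.99 to 0.96. CXCL8, the chemokine interleukin-8, changed by 0.79, 2.0 and 1.48 with BRD8518 at 1, 6 and 24 h, each past the threshold. With OSM it differed by 0.41 at 1 h (adjusted p = 0.0850) and 0.02 at 24 h (adjusted p = 0.970).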

How the data were processed

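HepG2 cells were profiled on 24 Affymetrix whole-transcript arrays in 8 groups of treatment and time, per the labels. The authors deposited log2 values from RMA, run with the oligo package according to the submitters' processing notes (versions not given in the sources used here). These values, unaltered, went from 0.913 to 13.7 over 53617 probe sets. RMA compresses changes of dim probe sets and gives no detection calls, and arrays carry no depth, so the number of arrays limits the precision.

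The platform annotation named 1 gene for 16098 probe sets. The other 37519 were unnamed and not used, so a gene counted as not measured may still be on the array. The probe set with the highest mean was kept per gene, which left 14884 genes. A single limma (3.58.1, R 4.3.3) model of all arrays held a mean for every group, with empirical Bayes moderation, and 15 contrasts were taken. P-values were two-sided and adjusted by Benjamini-Hochberg over all genes of a contrast, with a threshold of 0.05. Standard errors and 95% confidence intervals come from this fit. It was first tested on simulated data. Names and positions came from RefSeq (GRCh38.p14).

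The 7 genes and the gene lists were chosen with earlier results of these data known. A further gene list of the design is not reported here. All 7 are named, with up to 4 genes per list by the largest change past the threshold against DMSO, and for each gene the 2 profiles most like it. Alternatives were another centring, quantile normalization, a filter on low genes, trend and robust moderation, array weights, a fit of only the groups compared, averaged probe sets, a random or fixed term for position letter, and dropping single arrays. Centring on the tested genes' median was added after the data were seen.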

Additional observations from a re-analysis of the deposited data

Results flagged for a closer look

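These results stand out because the same contrast gave a different effect at another time or with the other agent, by a test of the difference itself in the limma fit (adjusted p under 0.05). With BRD8518 the effect at 6 h exceeded that at 1 h for SRF (0.75), ANKRD1 (1.95), TAGLN (1.61), CCN2 (0.65) and RHOB (0.75). From 6 h to 24 h it differed by -0.76 for SRF, -0.61 for CCN2 and 0.83 for FHL2. Between 1 h and 24 h it grew by 1.64 for ANKRD1, 1.37 for TAGLN and 1.35 for FHL2. With OSM the 24 h effect differed from the 1 h effect by -1.40 for ANKRD1, -1.42 for RHOB and 0.67 for FHL2. The difference between the agents changed from 1 h to 24 h by 3.03 for ANKRD1, 1.79 for RHOB, 1.75 for TAGLN, 0.68 for FHL2 and 0.31 for SRF. The 6 h values rest on 2 BRD8518 arrays and on arrays of 1 position letter. Both were varied in alternative fits, without single arrays or with a term for the letter. What sets these differences was not tested.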

How the results depend on the processing

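The counts of the 7 genes called were within 1.5 times the reported count except as follows, and the cause was not tested. For BRD8518 at 1 h, reported as 2, the count was 1 in a fit of the compared groups alone, 1 with arrays centred on the median of the tested genes (an alternative added after seeing the data), 4 with array weights and 0 with the position letter as a fixed term, where BRD8518 1 h replicate 1 alone sets that group. BRD8518 against OSM at 1 h gave 1 of 7 with the letter as a fixed term instead of 3, and the OSM effect at 24 h minus 1 h gave 5 with array weights instead of 3. Leaving out 1 array at a time gave 1 to 4 for BRD8518 at 1 h, where DMSO 1 h replicate 1 or 2 or BRD8518 1 h replicate 2 or 3 brought it to 1 and DMSO 6 h replicate 2 to 4. The ranges were 6 to 7 for BRD8518 at 6 h, 7 to 7 at 24 h, 2 to 4 for OSM at 1 h and at 24 h, 3 to 4 and 6 to 7 for BRD8518 against OSM at 1 h and 24 h, and 2 to 5 for the OSM effect at 24 h minus 1 h. For OSM at 1 h the count of 2 came without OSM 1 h replicate 1 or DMSO 1 h replicate 1. At 24 h it came without OSM 24 h replicate 1 or DMSO 24 h replicate 3. The OSM difference between times gave 2 without DMSO 1 h replicate 3 and 5 without DMSO 6 h replicate 2.

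Values that changed sign were near 0 and not called in any of these fits. With the mean of probe sets, CCN2 with OSM at 24 h was -0.0057, and its BRD8518 effect at 24 h minus 1 h was -0.13. Quantile normalization gave 0.0061 for SRF in BRD8518 against OSM at 1 h and 0.0024 for its BRD8518 effect at 24 h minus 1 h. That last value was 0.037 with centring on the tested genes and 0.049 with the letter as a fixed term, and the TPM1 effect at 6 h minus 1 h was 0.063 and 0.076 under these settings. Without 1 array, TAGLN and FHL2 with OSM at 1 h ran from -0.021 to 0.079 and from -0.058 to 0.093, and SRF with OSM at 24 h from -0.011 to 0.051. SRF in BRD8518 against OSM at 1 h ran from -0.039 to 0.018. The BRD8518 effect at 6 h minus 1 h ran from -0.084 to 0.023 for TPM1, and that at 24 h minus 1 h from -0.067 to 0.042 for SRF and from -0.026 to 0.080 for CCN2.

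With the letter as a fixed term ANKRD1 at 1 h with BRD8518 was 0.43, RHOB at 24 h with OSM -0.32, and CCN2 and TPM1 in BRD8518 against OSM at 1 h 0.46 and 0.41, none called. Counts over all genes for BRD8518 ran from 15 to 81 around 38 at 1 h and from 452 to 3466 around 2155 at 6 h, the lower 6 h value in the compared groups alone and the higher with array weights. The number of arrays limits the precision. No paired analysis was possible because the labels give no replicate numbers, and those used here follow accession order and pair nothing.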

Other observations

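Several genes whose profiles lay closest to a member had their own large responses to BRD8518. TCIM, close to CCN2, rose by 1.23 ± 0.09 (SE) at 1 h, 2.15 ± 0.09 at 6 h and 0.75 ± 0.09 at 24 h. CREBRF, a regulator of the CREB3 family factors and close to FHL2, rose by 1.29 ± 0.12 at 6 h and 1.80 ± 0.12 at 24 h, and by 0.63 ± 0.12 with OSM at 24 h. ZC3H12A, an RNase that acts on cytokine transcripts and close to RHOB, rose by 1.19 ± 0.09 with OSM at 1 h and by 0.58 ± 0.09, 1.33 ± 0.09 and 0.53 ± 0.09 with BRD8518 at 1, 6 and 24 h. SRXN1, the antioxidant enzyme sulfiredoxin and close to TAGLN, rose by 1.29 ± 0.10 at 6 h and 1.07 ± 0.10 at 24 h with BRD8518, and fell by 0.31 on the log2 scale with OSM at 24 h (adjusted p = 0.0464). These genes were sought only among those whose group means span at least 1 log2 unit, and were picked for the likeness of those means. Neither their resemblance nor the size of their responses is therefore a finding.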
